A study of Mus musculus with 24 samples.

Results

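CD8-sorted and CD4-sorted cells from the spleens of vehicle-treated mice were compared by bulk RNA sequencing, 3 libraries against 3. These are 6 of the 24 libraries of the series, taken by their labels for tissue, sorted marker and treatment. Every mouse used here was TCRα-/-, which means that both groups lacked an intact T cell receptor alpha chain gene. All mice also carried pancreatic tumors grown from implanted M8 organoids. Neither mice with an intact alpha chain gene nor mice without a tumor were analysed here. Vehicle was given by mouth every 3 days from day 4, and organs were taken on day 12. Cells were sorted as CD45+CD8+ or CD45+CD4+, where CD45 is present on nearly all blood-derived cells, and the protocol names no antibody against a T cell receptor or CD3. For comparison, the same contrast was taken from 3 and 3 libraries of the tumors of vehicle-treated mice, and from 3 and 3 libraries of the spleens of mice given LCL161 (75 mg/kg, 3 doses), a small-molecule antagonist of cIAP1 and cIAP2. Neither comparison shares a library with the vehicle spleen groups. The labels do not give age or sex, and do not say whether replicates came from separate mice, so p-values measure the spread between libraries, which may be technical. That spread was pooled over all 8 groups of the 24 libraries, which include tumors of LCL161-treated mice.

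CD4 is the coreceptor that helps T cells recognise peptides on MHC class II, and CD8 serves the same role for MHC class I. Neither protein is limited to T cells in the mouse. The alpha chain of CD8 is carried by the cDC1 subset of conventional dendritic cells in the spleen, which takes up dead cells and presents their antigens to CD8 T cells, and CD4 is carried by plasmacytoid dendritic cells, by part of the cDC2 subset and by lymphoid tissue inducer cells. Mice without the alpha chain lack conventional alpha beta T cells. They are known to keep gamma delta T cells and a CD4+ population with a beta chain but no alpha chain.

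The CD4 libraries held 18234896 to 20281276 counts each and the CD8 libraries 20747288 to 22805151. Mitochondrial genes took 1.82 to 1.91% of counts in the CD4 libraries and 1.46 to 1.52% in the CD8 libraries, and ribosomal protein genes took 2.02 to 2.51% and 3.02 to 3.43%. The CD4 libraries were less alike than the CD8 libraries. The median over genes of the SD of log2 CPM, where CPM is the count scaled by library size to a common total, was 0.27 in CD4 and 0.17 in CD8. CD4 library 2 stood apart: among the 200 most variable of 7860 well-expressed genes in the CD4 libraries, it was the lowest library for 149. Where leaving it out changed a call or a count beyond 1.5 times, the value without it is given.

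The targeted receptor gene and the sorted markers were read first. Trac, the constant segment of the alpha chain (chromosome 14, bases 54220521 to 54224206, GRCm38), measured 293, 573 and 119 CPM in CD4 libraries 1 to 3 and 9.3, 11.1 and 10.6 CPM in CD8 libraries 1 to 3, a log2 fold change of CD8 over CD4 of -4.99 (SE 0.70, adjusted p = 1.6e-04). Counts on this segment were thus present in all 6 libraries of TCRα-/- mice, and the files do not show whether they come from the disrupted part. Cd4 (chromosome 6, bases 124864692 to 124888221) measured 1312, 1358 and 860 CPM in the CD4 libraries and 8.94, 13.7 and 7.86 CPM in the CD8 libraries (log2 fold change -6.85, SE 0.38, adjusted p = 6.1e-09). Cd8a (chromosome 6, bases 71373427 to 71379173) measured 3.98, 1.29 and 1.11 CPM in the CD4 libraries and 622, 584 and 590 CPM in the CD8 libraries (8.13, SE 0.63, adjusted p = 3.6e-07). Both markers separated the groups in the direction of the sort. Cd8b1, the beta chain that pairs with Cd8a on T cells and is absent from cDC1, measured 97.1, 15.5 and 73.3 CPM in CD4 and 767, 435 and 665 CPM in CD8 (3.33, SE 0.61, adjusted p = 0.0016). The CD4 libraries therefore held Cd8b1 counts with little Cd8a, and CD4 library 2 held the fewest.

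Of 20174 genes tested, 2302 (11.4%) differed between CD8-sorted and CD4-sorted spleen cells at an adjusted p under 0.05 in edgeR's quasi-likelihood test. The number higher in CD8 was 1074 (5.32%) and the number lower was 1228 (6.09%). A difference of at least 2-fold was seen in 1501 of them, of at least 4-fold in 932 and of at least 16-fold in 408. The 3 CD8 values lay wholly above or below the 3 CD4 values in 7324 genes (36.3%), which include 2241 of the 2302. The count depended on single libraries: it was 1296 without CD8 library 1, 1341 without CD8 library 3, 1502 without CD8 library 2 and 1400 without CD4 library 1, against 1795 and 1844 without CD4 libraries 2 and 3. A bulk library cannot tell fewer cells of a type from less RNA per cell, which holds for every gene below.

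**Figure D1:**
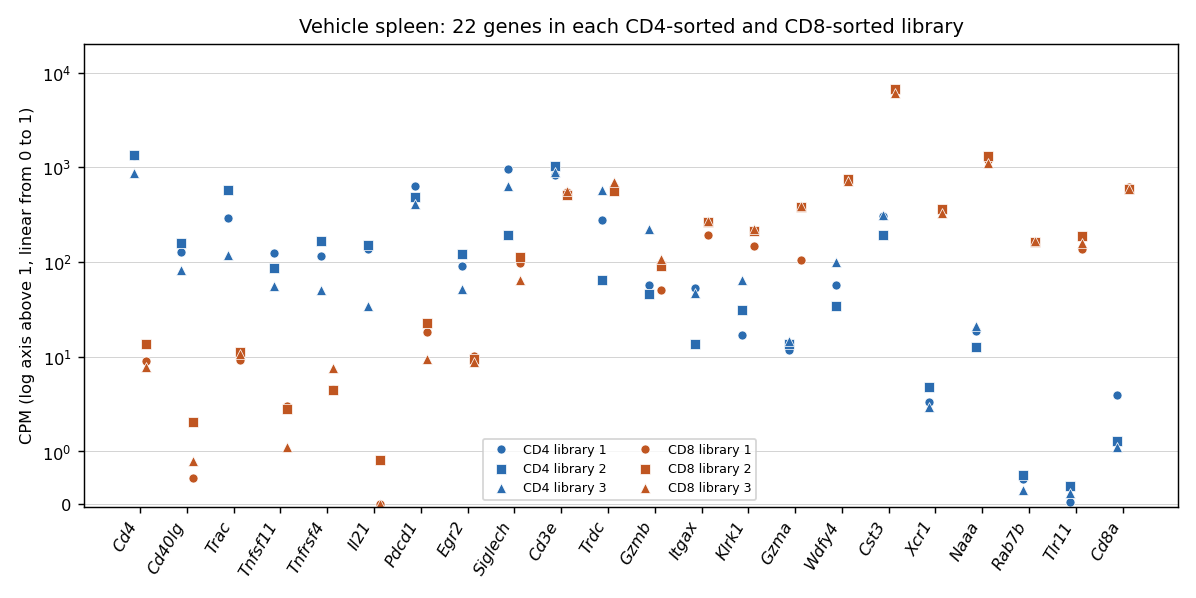
CPM of 22 genes in each of the 6 vehicle spleen libraries, on an axis that is logarithmic above 1 CPM and linear from 0 to 1. Blue marks are CD4 libraries, orange marks CD8 libraries, and the shape gives the library number. From left to right the genes run from those higher in CD4, such as Cd4 at 860 to 1358 CPM, through overlapping ones such as Trdc and Gzmb, to those higher in CD8, such as Cd8a at 584 to 622 CPM.

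The genes that accompany helper identity were lower in the CD8 libraries. In a list of 10 genes of the CD4 lineage, 8 were lower in CD8 and the other 2 did not pass the test, with a median log2 fold change of -2.10 against -0.03 over all genes tested, and the count was 8 without each of the 6 libraries. Zbtb7b, which encodes the transcription factor ThPOK that commits cells to the CD4 lineage, measured 36.5, 45.2 and 29.5 CPM in CD4 and 8.4, 9.51 and 8.88 CPM in CD8 (log2 fold change -2.05, SE 0.21, adjusted p = 8.5e-06). Cd40lg, the ligand through which helper cells activate B cells and dendritic cells, measured 129, 159 and 83.2 CPM in CD4 and 0.492, 2.03 and 0.825 CPM in CD8 (-6.78, SE 0.47, adjusted p = 1.3e-07). Neither gene's groups came near each other. Gata3, a factor required for CD4 cells and type 2 responses, and Tox, needed for CD4 lineage development, were lower by 1.55 (SE 0.21) and 3.09 (SE 0.59) on the log2 scale, where the exons of both overlap another gene and the strand of counting is not known. Among 10 CD8 lineage genes, Cd8a, Cd8b1 and Crtam, an adhesion receptor of activated CD8 cells, passed the test as higher in CD8. The number lower was 0, and without CD4 library 2 there were 4 higher and 1 lower.

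Genes of the T cell receptor itself were on balance lower in the CD8 libraries. Of 8 alpha beta receptor and CD3 genes, 6 were lower (median -0.92) and the other 2 did not pass. The number lower was 4 to 6 without each library, with 4 without CD4 library 1 or 2 or CD8 library 2 or 3. Cd3e, a signaling chain shared by all T cell receptors, measured 825, 1043 and 900 CPM in CD4 and 548, 514 and 559 CPM in CD8 (log2 fold change -0.77, SE 0.18, adjusted p = 0.0086), and Cd3g was lower by 0.90 (SE 0.19, adjusted p = 0.0039). Trbc2, a constant segment of the beta chain, measured 733, 1284 and 508 CPM in CD4 and 358, 310 and 328 CPM in CD8 (-1.34, SE 0.29, adjusted p = 0.005), so that beta chain RNA remained readily measurable in the CD8 libraries while Trac was near 10 CPM there. Of 20 genes of receptor signaling, 5 were lower in CD8. They include the kinase genes Zap70 (-1.27, SE 0.30) and Fyn (-0.88, SE 0.16), the adaptor gene Lcp2 (-1.03, SE 0.17) and Cd6 (-2.06, SE 0.30), a surface regulator of receptor signaling. Without CD4 library 3 the count was 9.

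Counts on receptor segments gave the same order. The 60 alpha joining segments summed to 33, 58.2 and 15 CPM in the CD4 libraries, spread over 26, 31 and 14 segments with a count, and to 0.179, 0 and 0.097 CPM in the CD8 libraries over 3, 0 and 2 segments. Alpha variable segments summed to 237, 366 and 227 CPM in CD4 and to 40.5, 34.5 and 40.3 CPM in CD8, a 7.19-fold difference. Beta variable segments summed to 437, 575 and 114 CPM in CD4 and to 67.9, 51.6 and 51.7 CPM in CD8, a 6.58-fold difference. Delta variable segments ran the other way, with 23.8, 1.24 and 5.97 CPM in CD4 and 65.1, 58.2 and 70.4 CPM in CD8, a 6.25-fold difference, and gamma variable segments overlapped (134, 52.6 and 268 CPM against 181, 182 and 170 CPM). For each of the separated sums the exact two-sided permutation p was 0.1, the smallest that 3 against 3 can give. These segments are short and alike, so reads can be shared between them.

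The share of single segments also differed between the gates. In the CD4 libraries 1 beta variable segment dominated each time: Trbv12-2 held 89.9% of beta variable counts in library 1 (95% Wilson interval 89.3 to 90.5%), Trbv3 held 39.6% in library 2 (38.8 to 40.5%) and Trbv12-1 held 78.2% in library 3 (76.4 to 79.9%). In the CD8 libraries the largest share was 10.8% (Trbv16), 13.3% (Trbv1) and 13.9% (Trbv20), and 8, 8 and 9 segments exceeded 5%, against 1, 4 and 2 in the CD4 libraries. Trbv12-1 and Trbv12-2 are near-identical copies between which counting can split reads. Alpha joining counts in CD4 were led by Traj42 in libraries 1 and 3 (46% and 78.9%) and by Traj43 in library 2 (35.9%). The intervals cover counting error only, and the dominant segment was not the same in all 3 CD4 libraries.

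Follicular helper genes, which serve T cells that support B cells in germinal centers, were among the groups furthest toward CD4. Of 11 such genes, 9 were lower in CD8 and 1 was higher, with a median of -2.40. The higher one was Btla, an inhibitory receptor gene that dendritic cells also express, picked out after its values were seen, and its call was lost without any 1 of the 6 libraries. The number lower was 7 to 9 without each library. Il21, the cytokine by which these cells drive B cells, measured 138, 150 and 34.5 CPM in CD4 and 0, 0.836 and 0 CPM in CD8 (log2 fold change -8.52, SE 1.55, adjusted p = 0.0015). Pdcd1, the inhibitory receptor PD-1 that follicular helper cells carry in quantity, measured 634, 488 and 414 CPM in CD4 and 18.2, 22.9 and 9.46 CPM in CD8 (-4.92, SE 0.87, adjusted p = 0.0013). Ascl2, a transcription factor that starts the follicular program, measured 15.4, 29 and 3.48 CPM in CD4 and had no count in CD8, at least 116-fold lower against a floor of 3 counts per library. Slamf6 and Sh2d1a, a receptor and its adaptor for contacts with B cells, were lower in CD8 by 1.55 (SE 0.29) and 2.08 (SE 0.40) on the log2 scale. All of these had separate groups, and CD4 library 3 was the lowest CD4 library for Il21, Pdcd1 and Ascl2.

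Costimulatory members of the TNF family were also lower in the CD8 libraries, 10 of 14 passing the test with a median of -1.76 and 8 to 10 passing without each library. Tnfsf11, the ligand RANKL, measured 125, 87.1 and 56 CPM in CD4 and 3, 2.82 and 1.12 CPM in CD8 (log2 fold change -5.26, SE 0.53, adjusted p = 9.6e-06). Tnfrsf4, the receptor OX40, measured 116, 166 and 50.8 CPM in CD4 and 4.56, 4.45 and 7.52 CPM in CD8 (-4.33, SE 0.53, adjusted p = 4.3e-05). Tnfrsf18, the receptor GITR, was lower by 1.39 (SE 0.25), Tnfrsf25 by 2.34 (SE 0.41) and the ligand gene Tnfsf14 by 1.60 (SE 0.25). The summed level of the list was 1257, 1570 and 1007 CPM in CD4 against 499, 444 and 471 CPM in CD8, 2.71-fold. By contrast, genes of the NF-kB pathway downstream of these receptors had a median of -0.05. In edgeR 2 of 24 passed, Traf2 and Nfkbia, both lower in CD8, where 6.09% of all genes were lower. Both calls were lost when any single library was left out (adjusted p 0.059 to 0.16). At an unadjusted p under 0.05 there were 4 higher and 3 lower. DESeq2 called 2 lower, and voom 3 higher and 3 lower. Birc2, which encodes cIAP1, measured 80.1, 80.7 and 75.5 CPM in CD4 and 66.3, 66.3 and 55.8 CPM in CD8 (-0.33, SE 0.22, adjusted p = 0.39), and Birc3, which encodes cIAP2, measured 89.2, 82.9 and 89.2 CPM against 89.3, 117 and 91.9 CPM (0.19, SE 0.17, adjusted p = 0.54). Map3k14, the kinase NIK that cIAPs hold down, had a log2 fold change of 0.34 (SE 0.26, adjusted p = 0.48) and Nfkb2 of -0.09 (SE 0.24, adjusted p = 0.87).

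Genes of other helper subsets followed with less even support. Of 12 regulatory T cell genes, 8 were lower in CD8 (median -3.18, 5 to 8 without each library, the 5 without CD8 library 1 or CD8 library 3). Their defining factor Foxp3 was not among them: it measured 7.23, 42.1 and 3.48 CPM in CD4 and 5.54, 4.05 and 4.03 CPM in CD8, so the groups overlapped and only CD4 library 2 stood out (log2 fold change -1.95, SE 1.03, adjusted p = 0.25, and -0.23 with adjusted p = 0.94 without that library). The members that moved included Ctla4, an inhibitory receptor (45.9, 70.9 and 13.3 CPM against 1.92, 3.79 and 0.291 CPM), and Itgb8, an integrin chain that activates TGF-beta (36.1, 44 and 8.82 CPM against 0.0447, 0 and 0 CPM). Of 8 type 2 helper genes tested, 4 were lower and 1 was higher, and Il4 measured 14.3, 15.6 and 6.65 CPM in CD4 and 0.0447, 0.264 and 0 CPM in CD8 (-6.77, SE 0.86, adjusted p = 6.8e-05). The higher one, the prostaglandin receptor gene Ptgdr2, was picked out after its values were seen, and its call was kept only without CD4 library 3. Of 10 type 17 genes, 6 were lower, and 3 were without CD4 library 2, which held 151 CPM of the chemokine receptor gene Ccr6 against 42.8 and 74 CPM in the other CD4 libraries and 6.57, 13.7 and 8.49 CPM in CD8 (-3.21, SE 0.68, adjusted p = 0.0046, and -2.59 with adjusted p = 0.024 without CD4 library 2). Of 9 type 1 genes only Tnf passed, with the call kept only without CD4 library 3, and Ifng, the hallmark cytokine of type 1 cells, measured 36.4, 49.6 and 32.4 CPM in CD4 and 6.04, 14.1 and 10.8 CPM in CD8 without passing (-1.94, SE 0.66, adjusted p = 0.064). DESeq2 and the 6 libraries alone called Ifng lower (adjusted p 0.013 and 0.017).

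Among 16 AP-1 and early genes of receptor stimulation, 2 were lower and 1 was higher in CD8, against 6.09% and 5.32% of all genes. The other 13 did not pass, among them Fos (log2 fold change 0.14, adjusted p = 0.9), Jun (0.05, adjusted p = 0.96) and Nr4a1 (-0.78, adjusted p = 0.21). Egr1 measured 167, 245 and 149 CPM in CD4 and 41.9, 41.6 and 37.1 CPM in CD8 (log2 fold change -2.22, SE 0.27, adjusted p = 4.2e-05). Egr2 measured 90.3, 120 and 51.3 CPM in CD4 and 10.1, 9.47 and 8.73 CPM in CD8 (-3.21, SE 0.53, adjusted p = 6.6e-04). Both encode zinc-finger factors induced through the receptor. The higher one was Atf3, a stress-induced factor of the same family as AP-1, with 1.45, 0 and 2.22 CPM in CD4 and 7.38, 6.82 and 8.64 CPM in CD8 (2.64, SE 0.76, adjusted p = 0.03), a call lost without CD4 library 1 or any 1 CD8 library (0.058 to 0.081). Of 13 lymphoid tissue inducer and type 2 innate lymphoid genes, 8 were lower in CD8 (median -2.22, 5 to 7 without each library, the 5 without CD8 library 1 or 3), and 5 of the 8 (Tnfsf11, Gata3, Cxcr5, Il22 and Il1r1) also stand in lists described above and Il23r in the gamma delta list, an overlap read after the values were seen.

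**Figure D2:**
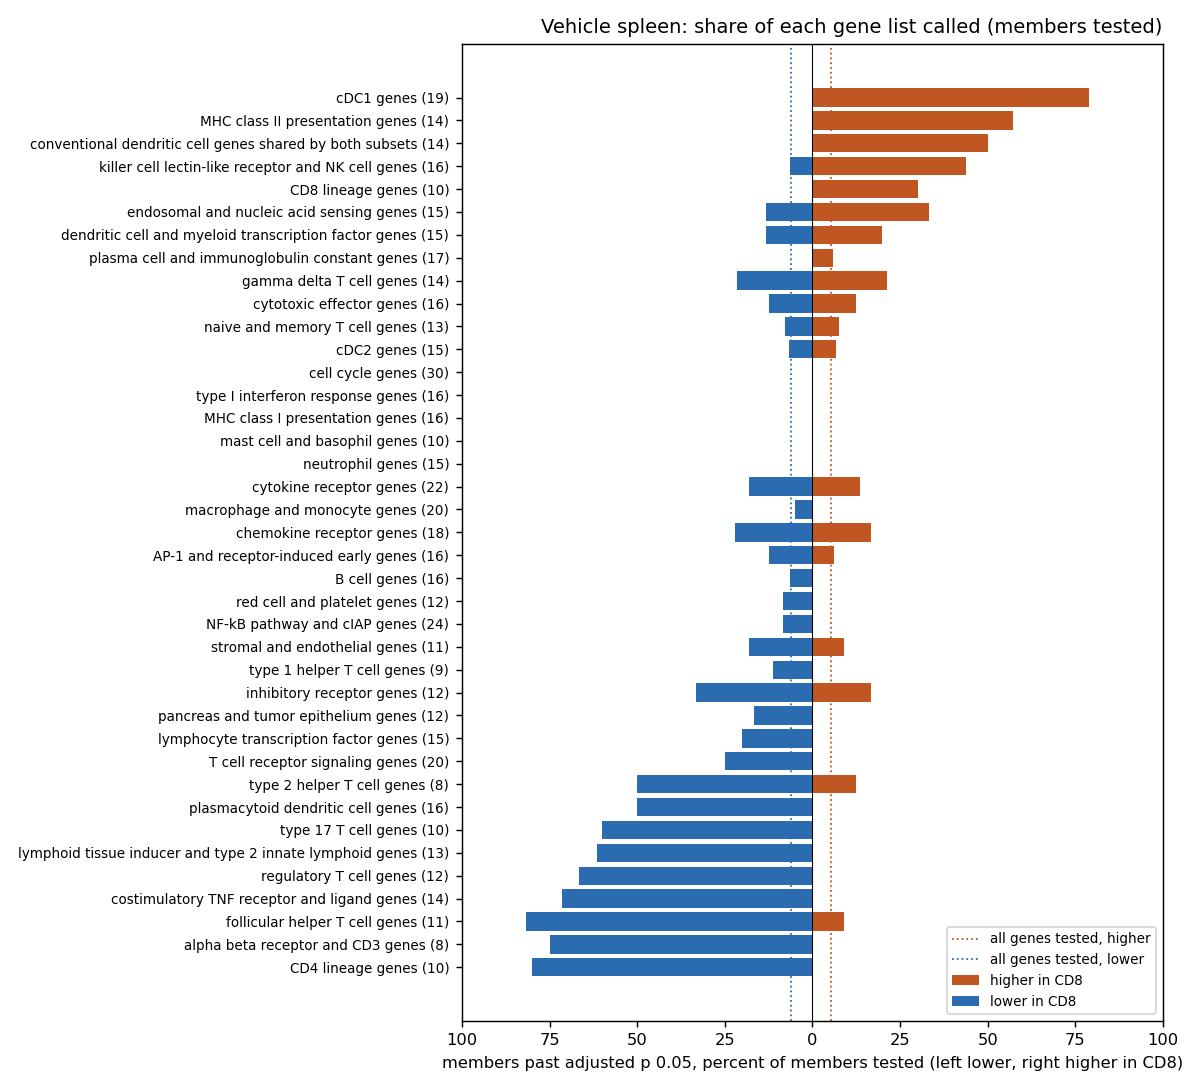
Share of the tested members of each of 39 gene lists that passed an adjusted p of 0.05, with members higher in CD8 to the right and lower in CD8 to the left, in percent. The number in brackets is the number tested, and the dotted lines mark 5.32% and 6.09%, the shares among all genes. The cDC1 list reaches furthest to the right (15 of 19), and the CD4 lineage (8 of 10) and follicular helper (9 of 11) lists furthest to the left.

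On the CD8 side, some of the receptors shared with natural killer cells were higher. Of 16 killer cell lectin-like receptor and NK cell genes, 7 were higher and 1 lower, against 5.32% and 6.09% of all genes, and the 7 were 7 without each library. Klrk1, the activating receptor NKG2D, measured 17.1, 30.9 and 64.6 CPM in CD4 and 146, 210 and 223 CPM in CD8 (log2 fold change 2.36, SE 0.44, adjusted p = 0.0018). Klrc2, an activating receptor that pairs with CD94, measured 5.04, 9.91 and 10.9 CPM in CD4 and 30.3, 46.1 and 55.1 CPM in CD8 (2.35, SE 0.46, adjusted p = 0.0026). Txk, a kinase gene of T and NK cells, was higher by 1.18 (SE 0.24). The 7 also include the granzyme gene Gzma, which stands in the cytotoxic list as well. Among the 8 that did not pass were Klrb1c (-0.64, adjusted p = 0.56) and Klrg1 (-0.65, adjusted p = 0.68). Of all 16, 13 had a positive and 3 a negative log2 fold change. The member lower in CD8 was Ncr1, the receptor NKp46 that defines NK cells (23.4, 15.3 and 63.3 CPM against 3.62, 4.4 and 7.18 CPM), picked out after its values were seen, and its call was lost without CD4 library 3 and without any 1 CD8 library.

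Cytotoxic genes did not move together. Gzma, a granzyme released by killer cells, measured 11.9, 13.7 and 14.6 CPM in CD4 and 105, 377 and 392 CPM in CD8 (log2 fold change 4.44, SE 0.73, adjusted p = 6.5e-04). Gzmm measured 1.41, 3.32 and 1.43 CPM in CD4 and 31.8, 19.7 and 50.4 CPM in CD8 (4.04, SE 0.52, adjusted p = 6.9e-05). In the opposite direction Gzmc measured 10.1, 4.56 and 19 CPM in CD4 and 0.805, 0.925 and 0.243 CPM in CD8 (-4.06, SE 0.86, adjusted p = 0.0046). Gzmb, the main granzyme of activated killer cells, did not pass: 56.6, 46.3 and 224 CPM in CD4 overlapped 51, 91.5 and 108 CPM in CD8 (-0.38, SE 0.63, adjusted p = 0.78), and CD4 library 3 held the highest value of all. In total 2 of 16 cytotoxic genes were higher and 2 lower in CD8, against 5.32% and 6.09% of all genes, and 1 was lower without CD4 library 1 or any 1 CD8 library.

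Gamma delta T cell genes were spread over both gates. Trdc, the delta constant segment, measured 279, 65.3 and 571 CPM in CD4 and 626, 567 and 698 CPM in CD8 (log2 fold change 1.05, SE 0.96, adjusted p = 0.56), where the CD4 libraries varied over a wider range than the difference between the groups. Of 14 genes in the list 3 were higher and 3 lower in CD8, against 5.32% and 6.09% of all genes. The number higher was 1 without CD4 library 2, 1 without CD4 library 3 and 1 without CD8 library 2 or 3, and the number lower was 1 without CD4 library 3, CD8 library 1 or CD8 library 3. The member with the smallest adjusted p among the rises was 5830411N06Rik, a scavenger receptor gene of gamma delta T cells, with 4.95, 10.9 and 10.6 CPM in CD4 and 63.1, 50.5 and 53.9 CPM in CD8 (2.66, SE 0.49, adjusted p = 0.0016). Sox13, a transcription factor of gamma delta cells, was higher by 3.16 (SE 0.90, adjusted p = 0.029), a call kept only without CD8 library 1. The third was Cd163l1, a related scavenger receptor gene picked out after its values were seen (2.69, SE 0.80, adjusted p = 0.034), with its call kept only without CD4 library 1. The fall with the smallest adjusted p was Maf, a factor of both follicular helper cells and interleukin 17 producing gamma delta cells, with 108, 122 and 139 CPM in CD4 and 3.8, 6.87 and 2.91 CPM in CD8 (-4.76, SE 0.59, adjusted p = 5.3e-05), in exons that overlap another gene.

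Among the 39 lists, which were chosen with earlier results of these data known, that of cDC1 had the highest share of members higher in the CD8 libraries and the highest median. Of 19 cDC1 genes, 15 were higher in CD8 and the other 4 did not pass, with a median log2 fold change of 4.11 against -0.03 over all genes, and 14 or 15 were higher without each library. The 4 were Irf8 (0.53, adjusted p = 0.6), Id2 (0.04, adjusted p = 0.95), Cd24a (1.51, adjusted p = 0.13) and Itgae (3.67, adjusted p = 0.052). Xcr1, the chemokine receptor that defines cDC1 (chromosome 9, bases 123852315 to 123862029), measured 3.35, 4.76 and 2.96 CPM in CD4 and 348, 364 and 327 CPM in CD8 (6.55, SE 0.71, adjusted p = 1.5e-05). Naaa, a lysosomal amidase gene of this subset, measured 18.5, 12.8 and 21.1 CPM in CD4 and 1196, 1306 and 1111 CPM in CD8 (6.11, SE 0.70, adjusted p = 2.6e-05). The CD8 values of both genes lay within a narrow range and far above every CD4 value. Wdfy4, required for cross-presentation, measured 56.9, 33.9 and 101 CPM in CD4 and 732, 745 and 719 CPM in CD8 (3.51, SE 0.57, adjusted p = 5.9e-04). Batf3, the transcription factor on which cDC1 depend, was higher by 3.01 (SE 0.64, adjusted p = 0.0045), and Rab7b, an endosomal GTPase gene, by 8.54 (SE 0.95, adjusted p = 2.0e-05). Clec9a, the receptor for dead cells, measured 16.1, 3.02 and 8.5 CPM against 70.3, 84.8 and 77.5 CPM and passed narrowly (3.07, SE 0.96, adjusted p = 0.044), with the call lost when any 1 of the 6 libraries was left out (adjusted p 0.062 to 0.13) and exons shared with its neighbour Clec1b. The summed cDC1 list was 2326, 1359 and 2363 CPM in CD4 and 6696, 7215 and 6473 CPM in CD8, a 3.37-fold difference with separate groups (exact two-sided permutation p = 0.1, the smallest possible).

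Some of the receptors by which this subset senses microbes were higher, of which Tlr11 and Tlr3 were already counted in the cDC1 list above. Tlr11, an endosomal receptor for profilin of protozoa, measured 0.0485, 0.347 and 0.211 CPM in CD4 and 137, 188 and 160 CPM in CD8 (log2 fold change 9.61, SE 1.07, adjusted p = 3.3e-05). Tlr3, the receptor for double-stranded RNA, measured 4.8, 3.67 and 7.39 CPM in CD4 and 131, 173 and 129 CPM in CD8 (4.77, SE 0.61, adjusted p = 7.6e-05), in exons that overlap another gene. Tlr13, which senses bacterial ribosomal RNA, was higher by 3.50 (SE 0.64), and the adaptor gene Myd88 by 0.55 (SE 0.14). Of 15 genes for nucleic acid and endosomal sensing, 5 were higher and 2 lower, against 5.32% and 6.09% of all genes. The lower ones were Tlr7 (-1.78) and Ifih1 (-1.35), with both calls lost without any library but CD4 library 2. Among those that did not pass were Tlr12 (0.73, adjusted p = 0.34), Tlr9 (-0.50, adjusted p = 0.71) and Unc93b1 (0.15, adjusted p = 0.86).

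Genes that both subsets of conventional dendritic cells share were higher in CD8 for 7 of 14, with none of the other 7 passing as lower. The number higher was 5 or 6 without each library. Cst3, the protease inhibitor cystatin C that dendritic cells hold in abundance, measured 303, 193 and 317 CPM in CD4 and 6646, 6740 and 6083 CPM in CD8 (log2 fold change 4.58, SE 0.59, adjusted p = 7.6e-05). Zbtb46, the transcription factor that marks conventional dendritic cells, measured 5.43, 8.12 and 16.7 CPM in CD4 and 89.8, 111 and 113 CPM in CD8 (3.38, SE 0.46, adjusted p = 1.3e-04). Itgax, which encodes the integrin chain CD11c, was higher by 2.67 (SE 0.50), the costimulatory ligand gene Cd86 by 3.22 (SE 0.43) and Fscn1, which shapes the processes of mature dendritic cells, by 3.71 (SE 0.55). Flt3, the growth factor receptor of dendritic cells, measured 93.9, 33 and 86.2 CPM in CD4 and 245, 306 and 243 CPM in CD8 and missed the threshold (1.90, SE 0.61, adjusted p = 0.051), which it passed in DESeq2 (0.0099), in voom (0.0036) and in the 6 libraries alone (0.025).

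MHC class II presentation followed the dendritic cell genes. Of 14 genes, 8 were higher in CD8 (median 1.31), and the number was 4 without CD4 library 2 and 5 without CD8 library 2. H2-Ab1, a chain of the class II molecule I-A, measured 1745, 735 and 1905 CPM in CD4 and 6910, 7489 and 6880 CPM in CD8 (log2 fold change 2.28, SE 0.51, adjusted p = 0.0062). H2-Eb1 had the same fold change, and H2-DMb1, which helps load the peptide, was higher by 2.19 (SE 0.52). Ciita, the regulator that switches class II genes on, was higher by 1.78 (SE 0.41) in exons that overlap another gene. The class II sum was 10744, 4875 and 12295 CPM in CD4 and 29837, 32555 and 29562 CPM in CD8, a 3.29-fold difference with separate groups. The part of cDC1 RNA in the class II and sensing differences was not tested. In 16 genes of class I presentation none passed in edgeR, with 2 at an unadjusted p under 0.05, 1 called by DESeq2 and 4 by voom.

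**Figure D3:**
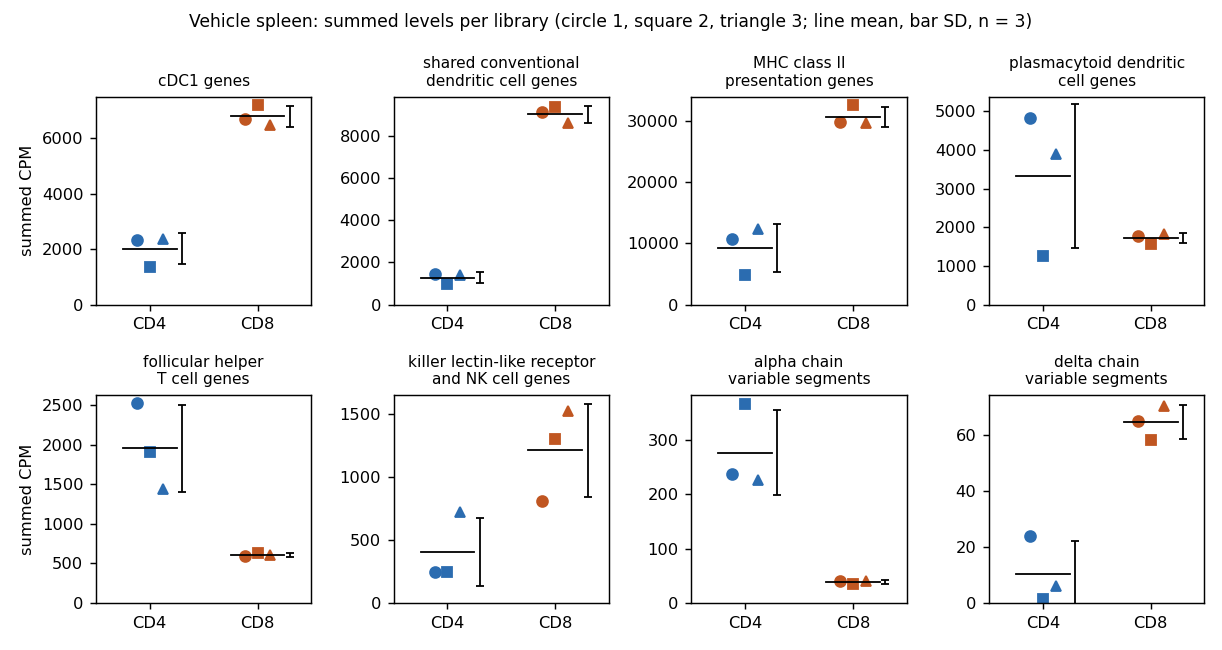
Summed CPM of 6 gene lists and 2 classes of receptor segments in each vehicle spleen library, on linear axes from 0, with CD4 in blue and CD8 in orange. The shape gives the library number, the line the mean and the bar the SD (n = 3), which ends at the axis where it would pass below 0. The cDC1 sum is 1359 to 2363 CPM in CD4 and 6473 to 7215 CPM in CD8, and in the plasmacytoid panel CD4 library 2, at 1258 CPM, lies below the CD8 libraries.

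Promoters of 4 genes are shown because they carry letters of motifs read by factors of these lineages and belong to genes at the ends of the contrast: Cd8a, Tlr11 and Gpr141b, higher in CD8, and Il21, lower in CD8. Each sequence is from RefSeq on GRCm38.p6, runs 5′ to 3′ on the strand of the gene and covers 250 bases before to 50 after the start. Capitals mark matches, on either strand, to GGAANNGAA (a composite of ETS and IRF factors) in Cd8a and Il21 and to GAAANNGAA (a repeated IRF core) in Tlr11 and Gpr141b. They lie at chr6:71373177-71373476 (+), chr14:50357664-50357963 (+), chr13:19732902-19733201 (-) and chr3:37232587-37232886 (-) in the order below.
Cd8a: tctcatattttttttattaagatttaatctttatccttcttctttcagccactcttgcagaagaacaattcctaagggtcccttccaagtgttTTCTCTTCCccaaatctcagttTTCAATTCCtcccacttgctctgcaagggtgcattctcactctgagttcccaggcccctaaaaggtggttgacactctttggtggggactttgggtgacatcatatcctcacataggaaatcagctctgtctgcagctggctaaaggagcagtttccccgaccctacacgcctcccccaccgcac
Tlr11: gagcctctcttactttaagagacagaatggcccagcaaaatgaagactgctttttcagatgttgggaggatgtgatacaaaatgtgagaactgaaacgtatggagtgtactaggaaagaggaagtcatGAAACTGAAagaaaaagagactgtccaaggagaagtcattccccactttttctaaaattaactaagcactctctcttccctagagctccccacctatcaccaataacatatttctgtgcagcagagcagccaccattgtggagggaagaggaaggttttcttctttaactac
Gpr141b: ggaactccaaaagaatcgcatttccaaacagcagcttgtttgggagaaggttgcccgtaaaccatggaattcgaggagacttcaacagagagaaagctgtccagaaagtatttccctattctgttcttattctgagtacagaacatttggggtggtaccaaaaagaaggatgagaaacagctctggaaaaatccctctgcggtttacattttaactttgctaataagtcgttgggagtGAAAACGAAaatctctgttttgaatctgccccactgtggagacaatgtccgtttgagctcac
Il21: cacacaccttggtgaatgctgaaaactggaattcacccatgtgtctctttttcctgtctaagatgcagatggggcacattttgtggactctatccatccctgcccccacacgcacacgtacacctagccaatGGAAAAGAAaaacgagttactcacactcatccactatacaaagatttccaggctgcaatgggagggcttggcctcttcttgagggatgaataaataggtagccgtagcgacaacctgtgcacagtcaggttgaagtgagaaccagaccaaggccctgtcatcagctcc
The shares that follow rest on 663 genes higher in CD8, 815 lower and 11763 tested, fewer than the full sets, since not every gene had a listed promoter. In these the repeated IRF motif was present in 10.3% of promoters of genes higher in CD8, 6.13% of those lower and 7.59% of genes tested. The composite was present in 8.3%, 7.73% and 7.38%. Over all 27025 listed promoters the shares were 8.57% and 8.25%, and the motifs share letters, so 1 site can match both. The other motifs searched, on both strands, were TGANTCA (AP-1), TGTGGT (RUNX) and CAGCTG (an E-box), present in 7.39%, 13.4% and 16.4% of promoters of genes higher in CD8 and in 5.64%, 13.5% and 16.2% of those lower, against 5.39%, 13.6% and 15.1% of genes tested. The promoters of Xcr1 and Naaa held none of the 5 motifs in this window. A match is a description of the letters and shows no binding.

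In the opposite direction, genes of plasmacytoid dendritic cells, the main producers of type I interferon, were lower in the CD8 libraries for 8 of 16 (median -1.69). Siglech, a surface lectin used to define these cells, measured 952, 194 and 640 CPM in CD4 and 97.3, 114 and 65 CPM in CD8 (log2 fold change -2.69, SE 0.62, adjusted p = 0.0078). Klk1 measured 232, 38.9 and 174 CPM in CD4 and 13.6, 13.5 and 7.67 CPM in CD8 (-3.68, SE 0.67, adjusted p = 0.0015), and Smim5 was lower by 2.95 (SE 0.56). CD4 library 2 was the lowest CD4 library for each of them and still above the CD8 libraries. Without it 13 of 16 were lower in CD8, and without CD4 library 1, CD8 library 1 or CD8 library 3 it was 5. The summed list was 4832, 1258 and 3903 CPM in CD4 and 1781, 1566 and 1817 CPM in CD8, so that CD4 library 2 fell below the CD8 libraries in the sum. The type I interferon response list did not follow: in edgeR 0 of 16 genes passed, 3 were at an unadjusted p under 0.05, DESeq2 called 0 and voom 1, and 1 passed in edgeR without CD4 library 2.

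Genes of the cDC2 subset gave few calls in edgeR, near the 5.32% higher and 6.09% lower among all genes. Of 15 genes 1 was higher in CD8, Cx3cr1, a fractalkine receptor gene (4.22, 15.4 and 13.8 CPM against 39.3, 91.3 and 97.5 CPM), and 1 was lower, Clec4a4. The number lower was 3 without CD4 library 2 and 0 without CD4 library 1, CD4 library 3 or CD8 library 2. DESeq2 called 4 lower and voom 5, with 5 at an unadjusted p under 0.05, and each tool called 1 higher. The median was -0.51, with 11 of the 15 log2 fold changes negative and 4 positive. Sirpa, the defining surface protein of cDC2, measured 168, 40.2 and 124 CPM in CD4 and 35.7, 51.6 and 39.5 CPM in CD8 (log2 fold change -1.39, SE 0.46, adjusted p = 0.056). The groups overlapped through CD4 library 2, and without that library Sirpa passed (-1.78, adjusted p = 0.013). Esam measured 1.31, 0.545 and 3.54 CPM against 4.07, 6.08 and 2.96 CPM and did not pass (1.28, SE 0.90, adjusted p = 0.41).

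Few markers of other cells passed the test in edgeR, though many were present in both gates. Among all genes 5.32% were higher and 6.09% lower, so these counts do not set the lists apart. Of 16 B cell genes 1 was lower in CD8, a call kept only without CD4 library 2, and voom called 4 lower. Cd79a, a signaling chain of the B cell receptor, measured 381, 234 and 573 CPM in CD4 and 265, 212 and 269 CPM in CD8 (log2 fold change -0.67, SE 0.70, adjusted p = 0.62). Igkc, the kappa light chain constant segment, measured 1842, 1647 and 2076 CPM in CD4 and 3038, 5174 and 4325 CPM in CD8 with separate groups and no call (1.17, SE 0.63, adjusted p = 0.25), though voom (0.048) and the 6 libraries alone (0.016) called it. Of 20 macrophage and monocyte genes 1, Axl, was lower in CD8 (-2.06, SE 0.37), and Csf1r, their growth factor receptor gene, measured 33.9, 19.8 and 18.3 CPM against 30, 51.5 and 42.4 CPM (0.78, SE 0.32, adjusted p = 0.13). In edgeR 0 of 15 neutrophil and 0 of 10 mast cell and basophil genes passed, with 1 and 0 at an unadjusted p under 0.05, 1 and 0 called by DESeq2 and 1 and 0 by voom. Without CD4 library 2, 1 neutrophil gene passed in edgeR as lower in CD8. Red cell and platelet genes summed to 3819, 262 and 2355 CPM in CD4 and 656, 470 and 1693 CPM in CD8. The part of B cell, plasma cell and red cell RNA in the differences between the gates was not tested.

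Cell cycle genes gave no call. Of 30 such genes 0 passed in edgeR, 1 was at an unadjusted p under 0.05, and DESeq2 and voom called 0. Their sum was 1828, 2338 and 1527 CPM in CD4 and 1676, 2158 and 1823 CPM in CD8. Among 18 chemokine receptor genes 3 were higher in CD8 (Xcr1, Cx3cr1 and Ccr7) and 4 lower, including Ccr4 of type 2 and skin-homing cells, with 21, 84.3 and 14 CPM in CD4 and 1.21, 0.264 and 1.31 CPM in CD8 (log2 fold change -5.42, SE 0.98, adjusted p = 0.0015). Ccr7, which guides cells to lymph nodes, measured 69.8, 56.2 and 93.8 CPM in CD4 and 504, 395 and 387 CPM in CD8 (2.55, SE 0.63, adjusted p = 0.013), and its adjusted p was 0.055 without CD4 library 1 and without CD4 library 2. The chemokine and cytokine receptor counts stand beside 5.32% higher and 6.09% lower among all genes. Of 22 cytokine receptor genes 3 were higher and 4 lower, and 2 were lower without any 1 library but CD4 library 1. Among them Csf2ra, a chain of the GM-CSF receptor, was higher by 3.20 (SE 0.52), and Il12rb1 and Il27ra were lower by 1.25 (SE 0.27) and 0.95 (SE 0.18).

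The remaining lists had calls in either direction, where 5.32% of all genes were higher and 6.09% lower. A count of 1 in a list of 11 to 17 genes is near those shares and does not set the list apart. Of 13 naive and memory T cell genes 1 was higher and 1 lower in CD8, and the number higher was 0 without CD4 library 1 and 2 without CD4 library 3. Of 12 inhibitory receptor genes 4 were lower, with Tigit, Pdcd1 and Ctla4 among them, and 2 were higher, of which 1 was called without CD4 library 3 and 0 without any other library in edgeR. Of 15 lymphocyte transcription factor genes 3 were lower, and the number was 3 without each library. The number higher was 0 with all libraries and 1 without CD4 library 2. Of 15 dendritic cell and myeloid transcription factor genes 3 were higher and 2 lower, 1 without any 1 CD8 library. Of 17 plasma cell and immunoglobulin constant genes 1 was higher, and 2 were without CD4 library 2. Of 11 stromal and endothelial genes 1 was higher and 2 lower, the lower calls being kept only without CD4 library 2. Of 12 red cell and platelet genes 1 was lower, and 0 were in edgeR without CD4 library 2 or 3 or CD8 library 1 or 2. Of 12 pancreas and tumor epithelium genes 2 were lower, 1 without CD4 library 2, CD8 library 1 or CD8 library 3.

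The largest rises among genes with at least 5 CPM were led by genes with no count in any CD4 library. Sult1a1, a sulfotransferase gene, measured 29, 72.5 and 25.1 CPM in CD8 and 0 in CD4, at least 280-fold higher, in exons that overlap Sgf29 on the opposite strand. Gpr141b measured 134, 191 and 132 CPM in CD8 and 0, 0.0495 and 0 CPM in CD4. Cd207, the lectin langerin found on part of cDC1, measured 22.3, 9.11 and 7.37 CPM in CD8 and 0 in CD4, at least 85.6-fold higher, and lost its call in voom (adjusted p = 0.064). The other such genes were Mab21l3 (at least 99-fold), Ptgis (71.2), Ltbp2 (60), Itga8 (51.2), Serpinb8 (49.5), Plce1 (44.5) and Esyt3 (35.2), and Pianp rose from 0.097, 0 and 0 CPM to 23.6, 20.9 and 24.1 CPM. Itga8 lost its call without CD4 library 1 (adjusted p = 0.053) and Esyt3 in voom (0.09).

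Of the 12 largest falls, 11 were genes with no count in the CD8 libraries, Ascl2 among them, and Itgb8 had a count in CD8 library 1 alone. Bace2, a protease gene, measured 29, 16.1 and 9.56 CPM in CD4, at least 133-fold lower in CD8, and Ccn5, a matricellular protein gene, measured 16.9, 26.5 and 41.3 CPM, at least 206-fold lower. Rasd2 measured 17.5, 1.93 and 76.3 CPM in CD4, at least 233-fold lower, and was uneven enough to lose its call in voom (adjusted p = 0.12) and in the 6 libraries alone (0.061). Cd109 (at least 126-fold), Npy (63.7), Chn1 (63.3), Fbn2 (57.6), Bmp2 (51.3) and Krt17 (47.9) were further ones. Cd109, Npy, Chn1, Fbn2 and Col16a1 were highest in CD4 library 2. Without it the first 4 were still called (adjusted p 0.013, 0.024, 0.019 and 0.0087), and Col16a1 (0.0485, 15.1 and 1.69 CPM, at least 40.8-fold) was not called without it (adjusted p = 0.15). Col16a1 was also lost without any 1 CD8 library (0.1 to 0.11). Npy was not called by DESeq2 (0.063) or in the 6 libraries alone (0.057).

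The contrast was then set beside the same contrast in the tumors of vehicle-treated mice. Of the 2302 spleen calls, 1504 (65.3%) had the same sign in tumor. Calls in both with the same sign numbered 292, which is 12.7% of the spleen calls and 35.6% of the 821 tumor calls, and 13 were called with opposite signs. The difference between the tissues itself passed for 664 genes (3.29%), 436 with a larger CD8 over CD4 value in spleen and 228 with a smaller one. Leaving out single libraries moved that count between 253 (without CD8 tumor library 1) and 855 (without CD4 tumor library 3). It was below 664 by more than 1.5 times without CD4 spleen libraries 1 (345) and 3 (424), CD8 spleen libraries 1, 2 and 3 (335, 329 and 342), CD4 tumor library 2 (367) and CD8 tumor libraries 2 and 3 (401 and 363).

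**Figure D4:**
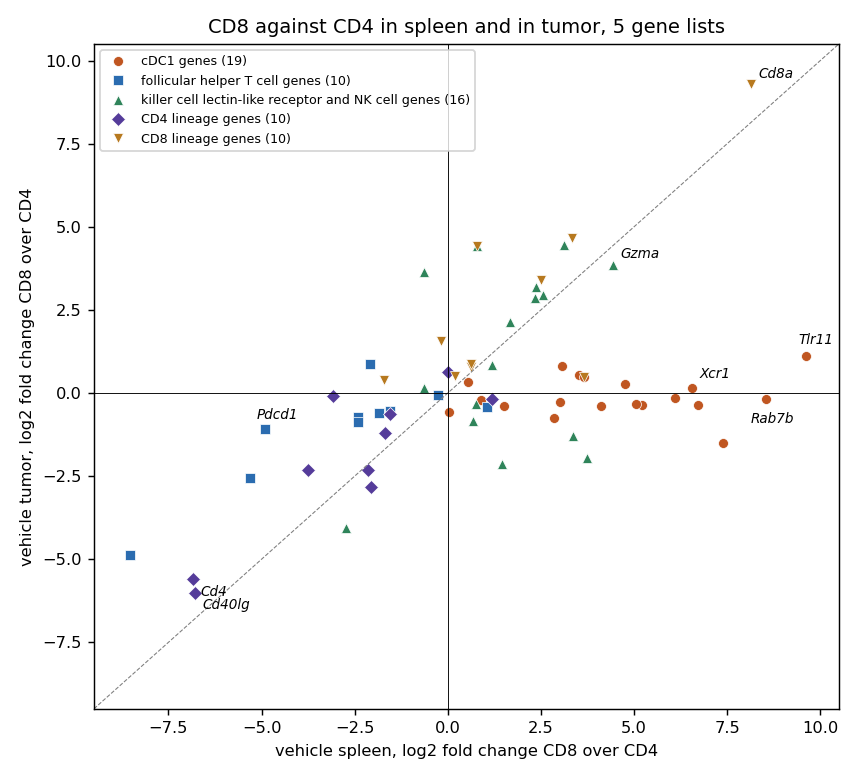
Log2 fold change of CD8 over CD4 in vehicle spleen (horizontal) and vehicle tumor (vertical) for the tested members of 5 gene lists, without genes that had no count in 1 of the spleen groups. Each mark is 1 gene, the dashed line marks equal values, and the number in brackets counts the genes plotted. The cDC1 genes lie along the horizontal axis, such as Xcr1 at 6.55 in spleen and 0.14 in tumor, whereas Cd4, Cd40lg and Cd8a lie near the dashed line.

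Of 19 cDC1 genes, 14 had a larger CD8 over CD4 value in spleen than in tumor, against 3.29% of all genes called in either direction, and their median within the tumor was -0.21. In the tumor, edgeR called 0 of them, with 2 at an unadjusted p under 0.05, and DESeq2 and voom were not run on the contrast within the tumor. Xcr1 measured 24.5, 29.5 and 9.71 CPM in CD4 and 13.6, 28.6 and 27.7 CPM in CD8 of the tumor, so that the groups overlapped there (difference of the log2 fold changes 6.41, SE 0.86, adjusted p = 6.0e-04). Cst3 behaved alike, with 594, 1891 and 336 CPM in tumor CD4 and 450, 853 and 656 CPM in tumor CD8 (difference 5.11, SE 0.76, adjusted p = 0.0013). Itgax was an exception, higher in CD8 by 2.49 (SE 0.50) in tumor as well.

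T cell genes split into those that kept their difference and those that did not. The 8 calls among CD4 lineage genes in spleen stood beside 6 in tumor, all lower in CD8, and Cd40lg was lower by 6.01 in tumor against 6.78 in spleen. Tigit, an inhibitory receptor gene, measured 120, 102 and 60.1 CPM in spleen CD4 and 4.56, 8.5 and 6.4 CPM in spleen CD8, but 17.7, 25.5 and 47 CPM and 45.3, 44.4 and 46.4 CPM in the tumor (difference -4.45, SE 0.65, adjusted p = 0.0011). Sh2d1a showed a difference of -2.95 (SE 0.56, adjusted p = 0.0073) and Fyn of -1.51 (SE 0.23, adjusted p = 0.0013). These 3 differences were called without each of the 12 libraries. Gzmb, level between the gates in spleen, measured 184, 175 and 55.9 CPM in tumor CD4 and 1655, 1255 and 1065 CPM in tumor CD8 (difference -3.64, SE 0.91, adjusted p = 0.034), a call lost without 9 of the 12 libraries and kept without CD4 spleen library 1 or 2 or CD4 tumor library 1.

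In the spleens of LCL161-treated mice most of the called genes kept their sign. Of the 2302 genes, 2153 (93.5%) had the same sign there, and 1290 were called in both with the same sign, which is 56% of the vehicle calls and 36.7% of the 3515 LCL161 calls, with 7 opposite. The difference between treatments passed for 59 genes (0.292%), of which 19 were among the 2302. That count rested on single libraries. It was 0 without CD8 vehicle library 1 and 0 without CD8 vehicle library 2 in edgeR, where 2063 and 2147 genes stood at an unadjusted p under 0.05. It was 1 without CD8 LCL161 library 3, 6 without CD8 vehicle library 3, 11 and 16 without CD4 vehicle libraries 3 and 1, 28 and 34 without CD8 LCL161 library 2 and CD4 LCL161 library 1, and 314 and 207 without CD8 LCL161 library 1 and CD4 LCL161 library 3. With all libraries DESeq2 called 511 and voom 588. Class II genes higher in CD8 numbered 8 in vehicle and 1 in LCL161 spleen (medians 1.31 and 0.49). Gamma delta genes higher in CD8 numbered 3 and 10 (medians 0.40 and 4.07). In edgeR the difference between treatments passed for 0 of 14 class II and 1 of 14 gamma delta genes.

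Zbtb7b and Zbtb46 are 2 of the genes where the contrast differed between treatments. Zbtb7b was lower in CD8 by 2.05 in vehicle and by 3.86 in LCL161 spleen (difference 1.81, SE 0.29, adjusted p = 0.026), with 2.31, 3.07 and 2.94 CPM in the CD8 libraries of LCL161 mice. Zbtb46 was higher in CD8 by 3.38 in vehicle and by 0.29 in LCL161 spleen (difference 3.09, SE 0.61, adjusted p = 0.039), with 29.4, 37.5 and 25.6 CPM in the CD8 libraries of LCL161 mice. Zbtb7b's call was lost without CD8 vehicle library 1 or 2 or CD8 LCL161 library 3 (adjusted p 0.051 to 0.086), and Zbtb46's was lost without 8 of the 12 libraries, up to 0.15 without CD8 LCL161 library 3. Of the 19 cDC1 genes 12 were higher in CD8 after LCL161 (median 3.42), and in edgeR 0 of the 19 passed the test of the difference between treatments, with 6 at an unadjusted p under 0.05, 2 called by DESeq2 and 1 by voom. Wdfy4, at 732, 745 and 719 CPM in the CD8 libraries of vehicle mice, measured 61.2, 104 and 55.2 CPM in those of LCL161 mice (difference 2.85, SE 0.75, adjusted p = 0.1).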

How the data were processed

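Total RNA of sorted CD45+CD4+ and CD45+CD8+ cells was sequenced in 24 libraries, 3 for each of 8 groups. The deposited table holds the authors' expected counts per gene symbol (55025 symbols, 52.7% of nonzero values not whole). The submitters' processing notes name cutadapt, STAR 2.7.3a and GRCm38. The sources used here do not give the counting tool, annotation or strand setting. Reads of overlapping genes on opposite strands may therefore not be told apart. Counts were rounded to whole numbers. After filterByExpr (minimum count 10) 20174 genes remained, which were scaled by TMM and tested with edgeR 4.0.16 (robust quasi-likelihood, R 4.3.3) over all 24 libraries with 8 group means and Benjamini-Hochberg adjustment across all genes. This pools the spread of all groups (16 residual degrees of freedom). CPM values use TMM-scaled library sizes. The SE is the log2 fold change divided by the square root of F. Differences between tissues and treatments were contrasts in the same fit. Replicates of a group differed by more than sampling noise (chi-square per gene 15.3 to 71.1). On simulated counts of this contrast (19717 genes, 200 changed) edgeR recovered 53% of 2-fold and 87% of 4-fold changes and called 12 unchanged genes.

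Named genes are the 12 largest and 12 smallest log2 fold changes among called genes with separate groups and at least 5 CPM, up to 4 members of each list by adjusted p, a panel of 28 genes, and the 5 largest and 5 smallest of each difference, with exceptions stated in the text. One of the panel genes is not reported here. The gene lists and the rule were chosen with earlier results of these data known. The alternatives were a filter of 5 CPM or none, RLE scaling or none, DESeq2 1.42.0, limma 3.58.1 voom, a replicate block, fewer libraries, a fold threshold and leaving out each library. Promoters are from RefSeq (GRCm38.p6), found for 397 of 544 genes looked up. Gene positions and overlaps are from GENCODE M21.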

Additional observations from a re-analysis of the deposited data

Results flagged for a closer look

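Each result here concerns a gene named in the text and is a difference of the CD8 over CD4 contrast between groups that passed the test of the difference itself in edgeR, on the log2 scale. Fitted differences of genes with no count in 1 group depend on the prior count and are no bound.

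Between spleen and tumor, the contrast was more toward CD8 in spleen for cDC1 and sensing genes: Xcr1 (6.41), Naaa (6.26), Rab7b (8.73), Ifi205 (5.39, one of a family of near-identical copies), Wdfy4 (2.97), Batf3 (3.29), Tlr11 (8.49), Tlr3 (4.49) and Tlr13 (4.17). It was also more toward CD8 in spleen for genes that both conventional dendritic cell subsets share, namely Cst3 (5.11), Zbtb46 (3.61), Fscn1 (2.93) and Cd86 (2.38). Further ones were the myeloid genes Csf2ra (4.33), Spi1 (3.11) and Csf1r (1.75), and H2-Ab1 (2.83) and H2-Eb1 (2.71). Genes from the largest rises were Sult1a1 (13.18), Gpr141b (12.58), Mab21l3 (10.68), Ptgis (12.83), Ltbp2 (12.17), Itga8 (16.75), Serpinb8 (11.42), Esyt3 (11.23) and Pianp (9.46). The immunoglobulin genes Igkc (3.74) and Ighg2b (13.01) and the arrestin gene Arrb1 (1.99) had positive differences too.

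The contrast was more toward CD4 in spleen than in tumor for the T cell genes Tigit (-4.45), Sh2d1a (-2.95), Fyn (-1.51), Cd3e (-0.98), Tox (-2.99), Cd7 (-1.75), Ascl2 (-12.10), Gzmb (-3.64) and Gzmk (-6.76). The plasmacytoid genes Siglech (-3.18) and Smim5 (-3.30), and Ccn5 (-10.58), Chad (-7.15) and Col18a1 (-6.83), ran the same way. Of these 44 differences, 22 were called without each of the 12 libraries, among them Xcr1, Naaa, Cst3, Zbtb46, Tlr11, Tlr3, Tigit, Fyn and Sh2d1a. The others lost the call without at least 1 library.

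Between vehicle and LCL161 spleen, 12 of the 59 genes that passed are named here, and each of these 12 lost its call in edgeR without at least 1 of the 12 libraries. The positive ones were Zbtb7b (1.81), Zbtb46 (3.09), Lmo4 (2.00), Cebpa (3.24), Palld (4.34), Arrb1 (2.55) and Arc (2.52). The negative ones were Ncald (-2.41), Gadd45g (-2.32), Cd7 (-1.79), Gpr171 (-1.38) and Sla2 (-0.92).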

How the results depend on the processing

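Beside the 2302 calls in vehicle spleen, other settings gave 1835 to 3065, except limma voom (4485) and an added requirement of a 2-fold change (1501). Leaving out 1 library gave 1296 to 1844. The 6 libraries alone gave 2608, and 1797 of the 2302 were kept there with the same sign. Without scaling, 895 genes were higher and 1499 lower, against 1074 and 1228, so that 37.4% and 46.7% of the calls were higher in CD8. The spleen and tumor difference (664) was 1378 in DESeq2, 1261 in voom and 253 to 855 without 1 library, and without scaling 56.5% of its calls were positive against 65.7%. The vehicle and LCL161 difference (59) was 34 without scaling, 34 without a filter, 134 with the 5 CPM filter, 511 in DESeq2, 588 in voom and 0 to 314 without 1 library. The cause of these shifts was not tested. Deviations from the group mean correlated weakly between CD4 and CD8 libraries of the same number (0.04, 0.08 and 0.08, each the highest for its library). Between libraries of different numbers the correlations were -0.06 to -0.01. Whether libraries of the same number share an origin was not tested. The numbers were not taken as pairs because the labels do not say what they share. A replicate block gave 1995, 487 and 45 calls for the 3 comparisons. No named gene's call reversed its direction under these settings. With 3 libraries a group, changes near 2-fold were often missed.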

Other observations

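Immunoglobulin variable segments were counted in both gates. Kappa segments summed to 923, 866 and 1112 CPM in CD4 and 1575, 2616 and 2138 CPM in CD8. A single kappa segment, Igkv14-111, held 37.5%, 29.8% and 12.4% of the kappa counts of CD8 libraries 1 to 3, and 27% in CD4 library 2. Heavy chain segments summed to 481, 547 and 627 CPM in CD4 and 742, 1523 and 1043 CPM in CD8, with a different leading segment in each CD8 library.

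Among gamma variable segments Trgv2 held 49.3 to 64.2% of counts in every library of both gates. The leading delta variable segment was Trdv5 in CD4 library 1 (90.4%) and CD4 library 2 (44%), and Trdv2-2 in CD4 library 3 (54%) and in the 3 CD8 libraries (35.6 to 41.3%).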
